A study of Mus musculus with 15 samples.

Results

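The common gamma chain family is a set of cytokine receptors that share a signalling chain, and its 8 receptor genes, Il2rg, Il2rb, Il2ra, Il15ra, Il7r, Il4ra, Il21r and Il9r, were followed here in CD4+ T cells with and without AMPKα1. The members were picked by gene symbol among the 55421 genes of the count tables, and all 8 were found and had enough reads to be tested in every comparison. AMPKα1, encoded by Prkaa1, is the catalytic subunit of AMPK, a kinase that senses low cellular energy.

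The cells came from C57BL/6 mice whose Prkaa1 alleles were floxed (fl/fl). Those labelled WT lacked Cre, and those labelled KO carried CD4-Cre, which acts from the CD4+CD8+ thymocyte stage onward. The WT cells thus carried the floxed alleles as well. Naive CD4+ T cells, sorted as CD25- CD44- CD62L+, were injected into Rag2-/- mice, which have no T or B cells of their own, as a transfer model of colitis. Donor T cells were sorted 6 weeks later from spleen and mesenteric lymph node (mLN). Each recipient got cells of a single genotype. The study reports that recipients of WT cells lost weight and had heavy T cell infiltration, while those of KO cells kept their weight and had mild inflammation. Genotype and the disease of the recipient thus cannot be told apart in these samples. The study used littermate mice of 6 to 8 weeks of age and sequenced 4 WT spleen, 4 KO spleen, 3 WT mLN and 4 KO mLN samples in 1 experiment, after 1 WT mLN sample had been left out on quality grounds.

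The common gamma chain, encoded by Il2rg, pairs with a private chain for each cytokine. It carries the signal through JAK3, which acts together with JAK1, and STAT5, STAT6 or STAT3 is phosphorylated downstream. The IL-2 and IL-15 receptors also share a beta chain, Il2rb. IL-7 keeps naive and memory T cells alive, IL-2 drives the growth of activated and regulatory T cells, and IL-4 and IL-21 steer helper T cell fates.

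The 15 samples held between 9363940 and 11283439 reads on genes. Prkaa1, the targeted gene, was lower in both KO groups, at 46.7 to 53.5 CPM (read counts scaled to the library total) in WT and 18.5 to 21.2 CPM in KO spleen, and at 51.0 to 60.7 in WT and 21.4 to 32.4 in KO mLN (log2 fold change -1.33 and -0.95, edgeR, adjusted p = 7.63e-05 and 0.0372). Reads from Prkaa1 exons outside the floxed part still count towards these values. Prkaa1 was also higher in KO mLN than in KO spleen (log2 fold change 0.46, edgeR, adjusted p = 0.0361), and the cause was not tested. T cell genes were abundant in all samples. Globin and other erythroid genes were high in 3 WT libraries, namely spleen replicates 3 and 4 and mLN replicate 4, with a summed level of 829.8 to 2021 CPM against at most 129 CPM in the other 12. WT mLN replicate 2 was the highest and KO mLN replicate 4 the lowest of all samples in Foxp3, the defining gene of regulatory T cells (Treg).

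The 8 genes lie on 5 chromosomes (GRCm38, GENCODE gene bounds). Il2rg is on the minus strand of chrX:101264378-101268255. Il2rb (chr15:78479256-78495271) and Il7r (chr15:9505788-9530176) are both on the minus strand of chromosome 15, far apart, and Il9r is on the minus strand of chr11:32187541-32200279. Il2ra (chr2:11642807-11693193) and Il15ra (chr2:11705290-11734317) are neighbours on the plus strand, with 12096 bases between them. Il4ra (chr7:125552120-125579474) and Il21r (chr7:125603429-125633570) are likewise neighbours on the plus strand, 23954 bases apart.

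Promoter sequences were found in RefSeq's table (GRCm38.p6) for 7 of the 8 members, with Il2rb missing. Those of Il7r and Il2ra, the members with the largest falls in KO cells, are shown with that of the shared chain Il2rg, each as the 160 bases before the RefSeq transcript start, 5′ to 3′ on the gene's strand, with motif matches in capitals. The Il7r window is chr15:9529877-9530036 (minus), which lies between the first exon of most annotated Il7r transcripts and that of a longer one, the Il2ra window is chr2:11642632-11642791 (plus) and the Il2rg window is chrX:101268256-101268415 (minus).
Il7r: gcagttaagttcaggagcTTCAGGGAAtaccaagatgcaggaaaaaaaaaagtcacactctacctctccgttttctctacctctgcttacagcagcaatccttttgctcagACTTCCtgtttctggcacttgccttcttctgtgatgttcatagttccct
Il2ra: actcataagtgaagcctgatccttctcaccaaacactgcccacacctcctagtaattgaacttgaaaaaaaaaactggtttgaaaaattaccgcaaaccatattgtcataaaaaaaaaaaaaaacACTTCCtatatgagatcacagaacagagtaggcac
Il2rg: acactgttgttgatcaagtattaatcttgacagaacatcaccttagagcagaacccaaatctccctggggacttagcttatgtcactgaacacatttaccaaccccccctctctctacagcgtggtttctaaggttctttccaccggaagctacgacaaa
Matches were sought on both strands to TTCNNNGAA (the STAT motif), GGAAGT (ETS), GTAAACA (FOXO) and CACGTG (E-box). The Il7r window held TTCNNNGAA at 142 to 134 bases and GGAAGT, on the other strand, at 49 to 44 bases before the start. The Il2ra window held GGAAGT on the other strand at 35 to 30 bases, and the Il2rg window held none of the 4. Of 32851 RefSeq promoters cut to the same length, 4.36% held TTCNNNGAA, 14.1% held GGAAGT, 1.95% held GTAAACA and 4.50% held CACGTG.

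The shared chain was the most abundant transcript of the family in every group. Compared per length, as CPM per kilobase of merged exons, Il2rg stood at a mean of 377 ± 56.6 in WT spleen, 397 ± 30.6 in KO spleen, 362 ± 22.7 in WT mLN and 389 ± 29.7 in KO mLN (SD, n = 4, 4, 3 and 4). Il2rb came next in 3 of the 4 groups, from 205 ± 14.6 in KO mLN to 319 ± 44.8 in WT spleen, where its range overlapped with that of Il2rg (257 to 353 against 306 to 439.6). Il7r followed in WT spleen at 169 ± 64.9 per kilobase but was above Il2rb in WT mLN at 289 ± 33.9, where the ranges of Il7r and Il2rb overlapped (249.9 to 312 against 213 to 304). Knockout cells had a different order in the middle of the family, since Il21r, at 83.5 ± 7.0 in spleen and 87.5 ± 12.6 in mLN, was then above Il7r in spleen (60.7 ± 9.90) and overlapped with it in mLN (95.5 ± 20.6).

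The remaining 4 private chains were at much lower levels per length. Il2ra ranged from 8.72 ± 1.54 in KO spleen to 36.5 ± 17.2 CPM per kilobase in WT mLN, Il4ra from 8.91 ± 0.90 to 13.99 ± 0.999, Il15ra from 8.19 ± 1.44 to 9.39 ± 1.04 and Il9r from 4.79 ± 1.15 to 9.53 ± 2.58 as group means. In WT cells Il2ra had the highest mean of these 4 in both organs. In KO spleen the ranges of all 4 overlapped, so that no order among them held beyond their spread.

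**Figure D1:**
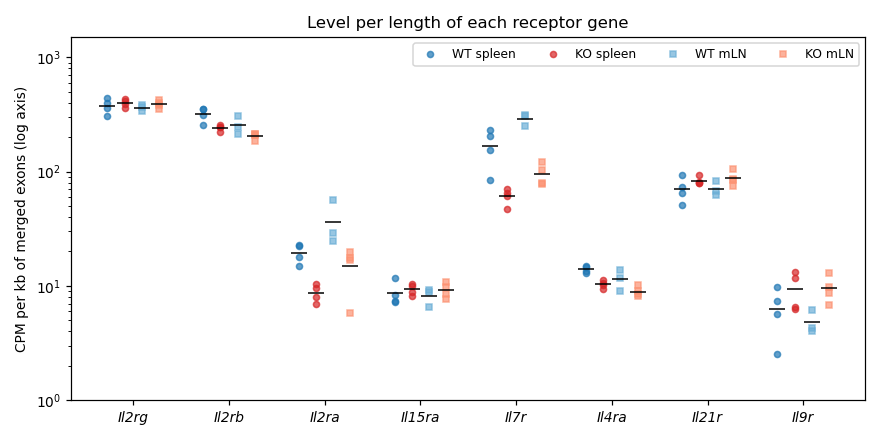
Level of each receptor gene in CPM per kilobase of merged exons (log axis), with 1 point per sample and a bar at the mean of the group. The Il2rg mean is the highest in all 4 groups, followed by Il2rb except in WT mLN, where Il7r is above Il2rb, and the Il7r and Il2ra points of KO cells lie below those of WT cells from the same organ.

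In spleen, the loss of AMPKα1 went with lower transcripts of 3 private chains. Il7r was 2.78-fold, Il2ra 2.24-fold and Il4ra 1.35-fold lower in KO than in WT cells, whereas the estimates for Il2rg, Il15ra, Il21r and Il9r were above 0 and did not pass the test. Thus 3 of the 8 members were called (edgeR's quasi-likelihood test, adjusted p below 0.05 over 14254 genes), all lower in KO, where 0.751% of all tested genes were called lower, 0.547% higher and 1.30% in either direction. The median log2 fold change over the 8 members was -0.16, against -0.0041 over all genes. In bulk samples such as these, fewer cells of a type and less RNA per cell cannot be told apart.

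Il2rg transcripts in spleen were at 950.3, 730.4, 1049 and 865 CPM in WT replicates 1 to 4 and at 927, 857, 1025 and 983 CPM in KO. The KO samples all lay within the WT range. The log2 fold change was 0.07 (SE 0.11), with a 95% interval of -0.17 to 0.32 (edgeR, adjusted p = 0.747).

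Il2rb, the beta chain of the IL-2 and IL-15 receptors, was at 1354, 1502, 1514 and 1101 CPM in WT and at 1050.0, 1056, 946 and 1087 CPM in KO spleen. All KO samples were below all WT samples, though WT replicate 4 exceeded the highest KO sample by little. The log2 fold change of -0.40 (SE 0.10) missed the threshold (edgeR, adjusted p = 0.0748). It passed in DESeq2, at -0.40 (adjusted p = 0.0111), with no filter on low counts, at -0.39 (edgeR, adjusted p = 0.00117), and without WT spleen replicate 4, at -0.49 (edgeR, adjusted p = 0.0299).

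Il2ra encodes CD25, the alpha chain that raises the affinity of the IL-2 receptor. It was at 103, 128, 85.4 and 129.5 CPM in WT and at 59.0, 45.2, 55.1 and 39.9 CPM in KO spleen. The groups were well apart, with the highest KO sample below the lowest WT sample. Il2ra fell by 1.16 on the log2 scale (SE 0.16, edgeR, adjusted p = 0.0123), and without KO spleen replicate 2 by 1.12 (adjusted p = 0.0569). In a fit of all 15 samples the fold change was the same and the call was lost (edgeR, adjusted p = 0.103), as it was for Il4ra (adjusted p = 0.0942) and not for Il7r (adjusted p = 0.00918). Il15ra, which presents IL-15 to neighbouring cells, overlapped between the groups, at 31.8 to 51.8 CPM in WT and 36.6 to 46.4 in KO spleen, and its log2 fold change was 0.12 (95% interval -0.22 to 0.46).

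Il7r, the IL-7 receptor alpha chain, was at 717, 956, 393 and 1080.1 CPM in WT and at 283, 326, 219 and 303 CPM in KO spleen. The WT samples were widely spread, and WT replicate 3, the library with the most erythroid reads, was the lowest of them but still above every KO sample. Il7r fell by 1.48 on the log2 scale (SE 0.26, edgeR, adjusted p = 0.0391). Without WT spleen replicate 3 it fell by 1.70 (adjusted p = 0.00203), and without any other single spleen sample, WT replicate 1, 2 or 4 or KO replicate 1, 2, 3 or 4, by 1.28 to 1.55 with adjusted p from 0.0589 to 0.108, above the threshold.

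Il4ra binds IL-4 and, with another chain, IL-13. It was at 77.4, 89.7, 88.3 and 80.4 CPM in WT and at 68.1, 63.0, 60.9 and 56.1 CPM in KO spleen, with no overlap and a narrow spread in both groups. Il4ra fell by 0.44 on the log2 scale (SE 0.08, edgeR, adjusted p = 0.0443). Without WT spleen replicate 3 the adjusted p was 0.0463, and without any other spleen sample, WT replicate 1, 2 or 4 or KO replicate 1, 2, 3 or 4, it was 0.0518 to 0.113. Without both erythroid-high WT samples it was 0.104, while Il2ra (0.0100) and Il7r (0.00266) kept adjusted p-values under 0.05 and Il2rb gained one, at -0.46 (0.0414).

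The IL-21 and IL-9 receptor chains pointed the other way in spleen without passing the test. Il21r was at 171 to 311 CPM in WT and 262 to 312 in KO, a log2 fold change of 0.23 (95% interval -0.11 to 0.57, edgeR, adjusted p = 0.425). Il9r was at 36.4, 27.8, 12.4 and 48.3 CPM in WT and 57.5, 66.1, 32.6 and 31.1 in KO, 0.58 on the log2 scale (95% interval -0.23 to 1.40; adjusted p = 0.401). Their groups overlapped. In all, 4 members had no overlap between genotypes in spleen, Il2ra, Il2rb, Il4ra and Il7r, all lower in KO, as against 12.0% of all tested genes in either direction.

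**Figure D2:**
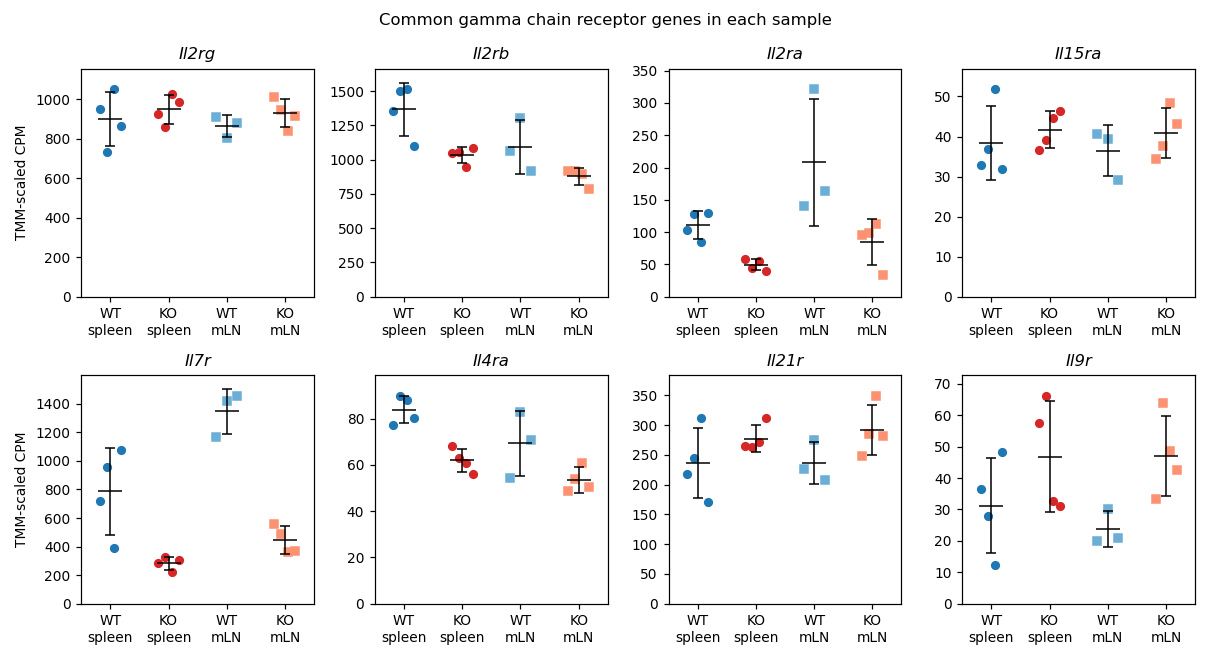
TMM-scaled CPM of the 8 receptor genes, with 1 point per sample, a bar at the group mean and whiskers of 1 SD (n = 4, 4, 3 and 4), and each axis starting at 0. The KO points of Il2ra and Il7r lie below all WT points of the same organ, whereas the Il2rg points of all groups lie between 730.4 and 1049 CPM.

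In mLN, Il7r was the 1 member of 8 that was called, 3.03-fold lower in KO cells (edgeR over 14359 genes, where 0.292% were called lower, 0.348% higher and 0.641% in either direction). Il2ra was 2.45-fold lower and Il9r 1.99-fold higher, and neither passed the test. The estimate for the shared chain was again close to 0. The median log2 fold change over the 8 members was -0.11, against -0.0038 over all genes.

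Il7r was at 1165, 1421 and 1454 CPM in WT mLN replicates 1, 2 and 4 and at 562, 486, 365 and 368 CPM in KO mLN replicates 1 to 4. The lowest WT sample was well above the highest KO sample. The gene fell by 1.60 on the log2 scale (SE 0.15, edgeR, adjusted p = 0.00314), and by 1.51 to 1.73 when any single sample was left out, with adjusted p at most 0.0217. Without both WT replicate 2 and KO replicate 4, the samples at the ends of the Foxp3 range, it fell by 1.47 (adjusted p = 0.0611).

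Il2ra was at 139.9, 321 and 164 CPM in WT and at 96.3, 99.2, 113 and 33.0 CPM in KO mLN. The genotypes did not overlap, but WT replicate 2 and KO replicate 4 stretched the distance between them. The log2 fold change was -1.29 (SE 0.37, 95% interval -2.11 to -0.47, edgeR, adjusted p = 0.139). Without those 2 samples it was -0.56 (adjusted p = 0.240), and in the fit of all 15 samples it passed, at -1.29 (adjusted p = 0.0412).

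The estimates of Il2rb and Il4ra were on the same side in mLN as in spleen, with overlapping groups. Il2rb was at 1061, 1303 and 915 CPM in WT and 921, 916, 894 and 787 in KO mLN, a log2 fold change of -0.31 (SE 0.12, edgeR, adjusted p = 0.226). Il4ra was at 54.5, 82.8 and 70.6 CPM in WT and 48.5, 54.1, 60.9 and 50.5 in KO, a log2 fold change of -0.37 (SE 0.15; adjusted p = 0.265). WT replicate 2 was the highest sample for both genes.

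Il9r, the private chain for IL-9, was at 19.8, 30.3 and 21.1 CPM in WT and at 33.5, 63.8, 48.8 and 42.6 CPM in KO mLN, so that all KO samples were above all WT samples. The difference of 0.99 on the log2 scale (SE 0.23, 95% interval 0.48 to 1.5) missed the threshold (edgeR, adjusted p = 0.0846). It passed without KO mLN replicate 1, at 1.13 (adjusted p = 0.0488), and in DESeq2, at 1.0 (adjusted p = 0.000936). In edgeR, 1 of 7 fits with a single sample left out passed, and their adjusted p reached 0.290. With the replicate number as a block the difference was 0.95 (edgeR with block, adjusted p = 0.116). Il9 itself had 0 reads in all 15 samples.

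Il2rg was at 909, 803 and 877 CPM in WT and 1011, 945, 841 and 913 in KO mLN, with a log2 fold change of 0.10 (95% interval -0.07 to 0.28, edgeR, adjusted p = 0.591). Il21r was at 226, 276 and 207 CPM in WT and 248, 285, 348 and 282 in KO, with 0.30 (0.0068 to 0.59; adjusted p = 0.307), and Il15ra ranged from 29.1 to 40.8 in WT and 34.3 to 48.3 in KO, with 0.16 (-0.20 to 0.53; adjusted p = 0.691). The groups of these 3 genes overlapped. In all, 3 members had no overlap in mLN, Il2ra and Il7r lower and Il9r higher in KO, as against 14.0% of all tested genes.

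**Figure D3:**
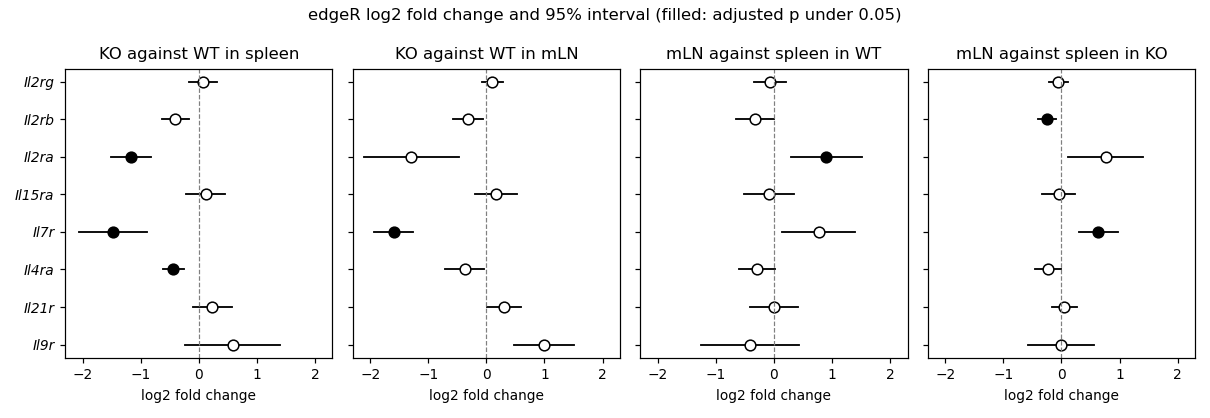
log2 fold change of the 8 members in 4 comparisons with 95% intervals from edgeR, where filled points have an adjusted p under 0.05. Il7r and Il2ra lie to the left of 0 in both genotype comparisons and to the right in both organ comparisons, and Il2rg lies near 0 in all 4.

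Whether the genotype difference depended on the organ was tested over all 15 samples. None of the 8 members passed, and no gene of 15438 did in edgeR, where 652 genes and 0 members had an unadjusted p under 0.05 (DESeq2 called 2 genes and 0 members). The differences between the organs' log2 fold changes ranged from -0.13 for Il2ra to 0.41 for Il9r, and the smallest unadjusted p of a member was 0.419. The intervals were wide, -1.08 to 0.82 for Il2ra and -0.84 to 0.60 for Il7r.

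Between the organs, Il2ra was higher in mLN in WT cells. It was 1.86-fold higher (log2 0.90, SE 0.27, edgeR, adjusted p = 0.0438) and was the 1 member of 8 called, in a comparison where 20.5% of all tested genes were, 9.70% higher and 10.8% lower in mLN. The estimate for Il7r was 1.70-fold (log2 0.77, SE 0.28) and missed the threshold (adjusted p = 0.0834). Both had no overlap, since the lowest mLN samples, at 139.9 CPM for Il2ra and 1165 CPM for Il7r, exceeded the highest spleen samples, at 129.5 and 1080.1 CPM, where 31.9% of all tested genes had none.

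The same-numbered WT samples of spleen and mLN deviated together, and with the replicate number as a block 4 members passed. The share of all tested genes called with the block is not given here, so this count has no background beside it. The 20.5% above belongs to the unblocked fit. WT mLN has no replicate 3, so WT spleen replicate 3 does not bear on the blocked organ difference, which rests on 3 pairs. In that fit Il7r was higher in mLN by 0.56 on the log2 scale (edgeR with block, adjusted p = 0.000439) and Il2ra by 0.70 (0.0112), while Il2rb was lower, at -0.28 (0.00855), and so was Il9r, at -0.66 (0.0473). The unblocked call on Il2ra was lost without WT spleen replicate 1, 2 or 3 or WT mLN replicate 2 or 4, with log2 fold changes of 0.44 to 1.04 and adjusted p of 0.0520 to 0.128. The smallest of these fold changes came without WT mLN replicate 2. The call was also lost in DESeq2 (0.90, adjusted p = 0.0659) and in the fit of all 15 samples (0.91, edgeR, adjusted p = 0.0543), where Il7r was called instead (0.78, adjusted p = 0.0328). Without the 3 erythroid-high libraries Il2ra stood at 0.99 (adjusted p = 0.121) and Il7r at 0.61 (0.0701). Without WT spleen replicate 4, Il7r was called, at 0.96 (adjusted p = 0.0390).

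In KO cells, Il7r was higher and Il2rb lower in mLN than in spleen. Il7r was 1.55-fold higher in mLN (log2 0.63, SE 0.15, edgeR, adjusted p = 0.0104), with every mLN sample above every spleen sample, and remained called whichever single sample was left out. Il2rb was 1.19-fold lower in mLN (log2 -0.25, SE 0.07; adjusted p = 0.0217), also without overlap, and without KO spleen replicate 1, 2 or 4 the adjusted p was 0.0617, 0.0539 and 0.0632. In the fit of all 15 samples neither passed (edgeR, adjusted p = 0.0512 for Il7r and 0.133 for Il2rb). These were 2 of 8 members called, where 25.3% of all tested genes were, 11.4% higher and 13.9% lower in mLN, and the 2 without overlap, where 28.8% were.

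The estimate for Il2ra in KO cells was 1.69-fold higher in mLN, which did not pass the unblocked test (log2 0.76, SE 0.30, 95% interval 0.11 to 1.41, edgeR, adjusted p = 0.0846). Here KO mLN replicate 4, at 33.0 CPM, was below all 4 KO spleen samples. Without it the difference was 1.03 (adjusted p = 0.0005). With all KO samples kept and the replicate number as a block, Il2ra passed, at 0.65 (edgeR with block, adjusted p = 0.0341). The log2 fold change of Il4ra was -0.28 in WT and -0.23 in KO, neither of which passed (adjusted p = 0.179 and 0.113). It was called in KO without KO mLN replicate 3, at -0.30 (adjusted p = 0.0464).

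None of the other 4 members was called between organs in the unblocked fits. The log2 fold change of mLN against spleen was -0.07 in WT and -0.05 in KO for Il2rg, -0.09 and -0.05 for Il15ra, -0.0036 and 0.05 for Il21r, and -0.41 and -0.01 for Il9r. The intervals were narrowest for Il2rg, -0.34 to 0.20 in WT and -0.22 to 0.11 in KO, and widest for Il9r in WT, -1.25 to 0.44.

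The make-up of the family is given as a description, with no test. Of the summed CPM per kilobase of the 8 genes, Il2rg took 38.3% ± 5.29 in WT and 48.4% ± 3.14 in KO spleen, and 35.0% ± 4.26 in WT and 47.4% ± 2.50 in KO mLN (SD, n = 4, 4, 3 and 4). Il7r took 17.3% ± 6.93 and 7.40% ± 1.25 in spleen, and 27.8% ± 2.93 and 11.6% ± 1.82 in mLN. The mean share of Il2rg was thus higher and that of Il7r lower in KO cells of both organs, and the samples of the genotypes did not overlap, except for Il7r in spleen, where the lowest WT share was 8.30% and the highest KO share 8.81%. As the shares add up to the whole, lower levels of other members raise the Il2rg share by construction. The Il2rg level itself did not pass (log2 fold change 0.07 in spleen and 0.10 in mLN, edgeR, adjusted p = 0.747 and 0.591). As a percentage of the Il2rg level per kilobase, Il7r stood at 47.2% ± 22.6 in WT and 15.5% ± 3.51 in KO spleen, and at 80.3% ± 13.1 and 24.4% ± 3.60 in mLN. Il2ra stood at 5.37% ± 1.74 and 2.20% ± 0.39 in spleen, and at 10.3% ± 5.57 and 3.87% ± 1.72 in mLN, on the same scale.

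The pairs of neighbouring genes were set against each other by their reads. Il2ra had 1.65 to 4.07 reads per Il15ra read in WT and 0.860 to 1.61 in KO spleen, and 3.43 to 8.15 in WT and 0.763 to 2.81 in KO mLN, so that the genotypes did not overlap in either organ. Il4ra likewise had 0.284 to 0.472 reads per Il21r read in WT and 0.180 to 0.258 in KO spleen, and 0.241 to 0.340 in WT and 0.175 to 0.196 in KO mLN, again without overlap. Both ratios set a gene with estimates below 0 in KO over a gene with estimates above 0. Taken alone, Il4ra and Il21r overlapped between genotypes in mLN. How often the ratios of other gene pairs separate the genotypes was not computed.

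Il2ra and Foxp3 varied together across the samples. Among 15438 genes, those most like Il2ra over the 15 samples were Chrac1 (Pearson r = 0.96), Foxp3 (0.95) and Socs2 (0.95), the last a feedback inhibitor of cytokine signalling. The correlation with Foxp3 was 0.92 after the group means had been removed, over samples that share organ and genotype effects. Il2ra had 3.10 to 5.31 reads per Foxp3 read in WT and 2.76 to 4.06 in KO spleen, and 2.4 to 3.85 in WT and 2.62 to 4.48 in KO mLN, so that the genotypes overlapped in both organs.

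**Figure D4:**
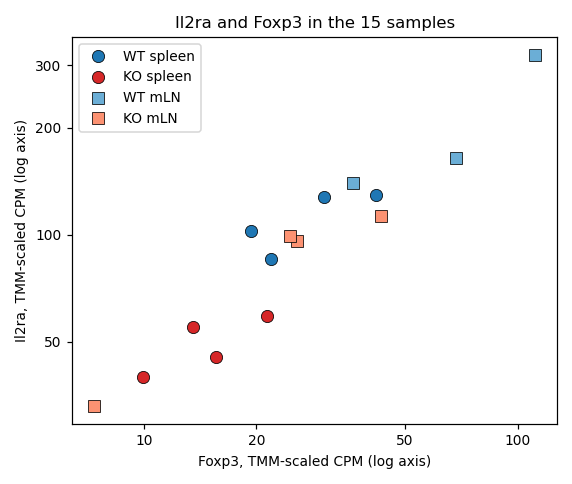
Il2ra against Foxp3 in TMM-scaled CPM (both log axes), with 1 point per sample (n = 15). The points rise together from KO mLN replicate 4, with 7.36 CPM of Foxp3 and 33.0 of Il2ra, to WT mLN replicate 2, with 111 and 321 CPM.

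The 8 Treg genes of the marker list were compared in the same way. In spleen, 7 of 8 had estimates below 0 in KO (median log2 -0.70), of which Ctla4, an inhibitory receptor, passed (log2 -0.78, edgeR, adjusted p = 0.0391) and Foxp3 did not (-0.91, adjusted p = 0.108). In mLN all 8 were below 0 (median -0.92) and none passed, with Foxp3 at -1.52 (0.165). Their summed level was 736 to 939.7 CPM in WT and 517 to 663 in KO spleen, and 1005 to 1905 in WT and 744 to 1062 in KO mLN. Between organs all 8 had estimates above 0 in mLN in both genotypes, of which 6 passed in WT and 5 in KO (Ctla4, Tnfrsf4, Tnfrsf18, Gpr83 and Tigit). Of all tested genes, 9.70% in WT and 11.4% in KO were called higher in mLN. The part of the Treg genes in the Il2ra difference was not tested.

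Il7r varied together with Satb1, a gene of the naive or central memory list. The genes most like Il7r were Satb1 (r = 0.95), a chromatin organizer of T cells, Klf13 (0.95) and Hbp1 (0.94), and after the group means had been removed r with Satb1 was 0.88. Il7r had 2.59 to 3.41 reads per Satb1 read in WT and 1.51 to 2.26 in KO spleen, and 3.85 to 5.30 in WT and 2.02 to 2.46 in KO mLN, without overlap in either organ. Satb1 was picked by its likeness to Il7r in these same samples, so the ratio is a description only. How often ratios to other genes separate the genotypes was not computed. Of the 8 naive or central memory genes of the marker list, none was called between genotypes and 6 of 8 had estimates below 0 in KO in each organ (medians -0.29 in spleen and -0.43 in mLN). Their summed level overlapped in both organs, at 903 to 1838 CPM in WT and 1143 to 1555 in KO spleen, and 2001 to 2345 and 1506 to 2111 in mLN. Between organs, 3 of the 8 were higher in mLN in WT (Lef1, Klf2 and Ccr7) and 5 in KO (Tcf7 and Satb1 as well). The shares of all tested genes called higher in mLN were 9.70% in WT and 11.4% in KO. The part of these 8 genes in the Il7r differences was not tested.

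Il2ra and Il7r had a correlation of 0.84 over the 15 samples and 0.37 after the group means had been removed. Il15ra and Il21r, at 0.83 and 0.85, varied together also within the groups. The 3 genes most like each other member, with r between 0.82 and 0.94, were Serpina3f, Junb and 5830411N06Rik for Il2rb, Ppp1r11, Actg1 and Capzb for Il2rg, and Pskh1, Rcan3 and Gm16157 for Il4ra. For Il9r they were St8sia4, Arhgap5 and Usp33, for Il15ra Tapbpl, Hccs and Ndfip2, and for Il21r Tapbpl, Pdgfb and Unc5cl.

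The ligands of the family had few reads in these cells. Il2 had 114 to 330 reads per sample and Il21 71 to 335, while Il4 had 5 to 102, Il7 5 to 58, Il15 0 to 37 and Il9 none. No cytokine gene was called in any comparison. Il2 was at 0.48 on the log2 scale in KO against WT spleen (edgeR, adjusted p = 0.126) and at 0.46 in mLN (0.267). Of the partner chains that join family members outside this family, Crlf2, which pairs with Il7r in the TSLP receptor, had 582 to 839 reads per sample and a log2 fold change of -0.07 in spleen and -0.11 in mLN, neither of which passed.

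The kinases and transcription factors that carry the signal showed no called genotype difference. Of the 7 JAK and STAT genes, all tested, 0 passed in either organ (median log2 0.05 in spleen and 0.04 in mLN). Between organs, Jak3, the kinase bound by the shared chain, was lower in mLN, at -0.88 in WT (edgeR, adjusted p = 0.00445) and -0.98 in KO (5.94e-05), and so was Stat6, the factor of IL-4 signalling, at -0.42 (0.0184) and -0.51 (0.00213). Stat5b was lower in mLN than in spleen in KO cells, at -0.26 (0.0127). These made 2 of 7 genes in WT and 3 of 7 in KO. Of all tested genes, 10.8% in WT and 13.9% in KO were called lower in mLN.

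Among 14 feedback and STAT5 target genes, 2 were lower in KO spleen, Myc, a driver of cell growth, at -0.98 (edgeR, adjusted p = 0.0453) and Pim1, a survival kinase, at -0.67 (0.0378). Of all genes tested in spleen, 0.751% were called lower in KO. None of the 14 was called between genotypes in mLN, where Myc stood at -0.91 (0.0770) and Pim1 at -0.87 (0.0575). Myc was higher in mLN than in spleen in WT (0.92, adjusted p = 0.0198) and in KO (0.98, adjusted p = 0.00237). In KO cells Bcl2 (0.73, adjusted p = 0.0017) and Socs1 (0.60, adjusted p = 0.000169) were also higher in mLN, and Sh2b3 (-0.67, adjusted p = 0.00205) and Pim1 (-0.52, adjusted p = 0.0208) were lower. Between organs, 20.5% of all tested genes in WT and 25.3% in KO were called in either direction.

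Other annotated genes overlap 3 of the members. Gm37881 lies within Il2ra on the same strand and had 9 to 58 reads, Gm44876 lies opposite Il4ra and had 13 to 30, and Gm20489 spans Il2rg and had 0 or 1. The members had at least 367, 521 and 7066 reads per sample, in the same order. The strand on which reads were counted is not given in the sources used here.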

How the data were processed

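RNA of sorted CD4+ T cells was sequenced by the authors (NEBNext Single Cell/Low Input kit, NextSeq500, single-end reads of 75 bases), aligned to GRCm38 with STAR 2.6.1a in 2-pass mode and counted per gene by STAR with GENCODE M23. The deposited values are these raw counts for 55421 genes, 1 table per sample. The submitters' processing notes also name bcl2fastq 2.19.1.403, RSEM and DESeq2 1.22.2. Reads that STAR counted under no feature, 58.4% to 63.4% of uniquely aligned reads, were left out of all totals. Where these reads lay was not examined.

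Symbols and exon lengths were taken from GENCODE M21, which matched 55240 genes. Each comparison was fitted alone in edgeR 4.0.16 (R 4.3.3; filterByExpr, TMM, glmQLFit, glmQLFTest) on the raw counts of its groups, with Benjamini-Hochberg adjustment over all genes tested, and genes with adjusted p under 0.05 were called. The interaction was fitted on all 15 samples. Levels are CPM scaled by TMM over all 15 samples, close to CPM on raw totals (Il2rg in WT spleen 377 against 381 CPM per kilobase). The ranking of the most correlated genes and the deviations of same-numbered samples used log2 CPM with a prior count of 2. Correlations between members, and those after the group means had been removed, used log2 of TMM-scaled CPM plus 1. DESeq2 1.42.0 was an alternative, beside RLE scaling, no filter, at least 10 counts in every sample, 1 fit of all samples, a replicate block, an absolute log2 fold change above 1, and single samples left out. The fits were tested on simulated counts.

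The members, the gene lists and the comparisons were chosen with earlier results of these data known, and the study itself names Il2ra and Il7r, so their differences are not independent evidence. Genes were named if they were members, called genes of a list with at most 5 called, or the 3 most correlated with a member; Foxp3 values and those of list genes that missed the threshold are given for comparison. Leaving out the erythroid-high and the Foxp3-extreme libraries was chosen after seeing the data.

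The labels give a replicate number to each sample but do not say that the same number marks 1 mouse. Deviations from group means of same-numbered WT spleen and mLN samples correlated at 0.26, 0.24 and 0.29, so these were treated as pairs and blocked values are given. Those of KO samples correlated at 0.041, 0.17, 0.026 and 0.26. These were not treated as pairs, but the blocked value of Il2ra is given for KO organs too. In its T cell receptor sequencing the study compares spleen and mLN of each mouse. If same-numbered samples shared a mouse, the unblocked organ fits, the fit of all 15 samples and the unblocked interaction counted them as independent. Replicates differed by more than sampling noise (chi-square per degree of freedom at least 4.39). The study describes 1 experiment with 4 mice per group, which gives 1 mouse to each of 4 samples, but the labels do not tie samples to mice, so p-values measure the spread between these samples.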

Additional observations from a re-analysis of the deposited data

How the results depend on the processing

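The number of members called in KO against WT spleen was 3, and it became 4 in DESeq2, 5 with no filter on low counts, 1 with a replicate block, 1 with all 15 samples in 1 fit, and 0 to 3 with single samples left out. In mLN it was 1, and it became 2 in DESeq2, 4 with no filter, 0 with the block, 2 in the fit of all samples, 0 without WT mLN replicate 2 and KO mLN replicate 4, and 1 to 2 with single samples left out. For mLN against spleen in WT it was 1, and 0 in DESeq2, 3 with no filter, 4 with the block, 0 without the 3 erythroid-high libraries, 0 above an absolute log2 fold change of 1, and 0 to 2 with single samples left out. In KO it was 2, and 0 in the fit of all samples, 0 above an absolute log2 fold change of 1 and 1 to 3 with single samples left out. For the interaction it was 0 in all fits run. Over all genes, 185 were called in spleen (DESeq2 799, no filter 1422, block 17) and 92 in mLN (561, 913 and 1). The cause was not tested. Deviations of same-numbered samples correlated at -0.21 to 0.15 between genotypes, so there the block marks only a shared number. Between KO organs they correlated at 0.041, 0.17, 0.026 and 0.26 for replicates 1 to 4, all above 0. The labels do not say whether these samples share a mouse. Under the block Il2ra was called between KO organs, at 0.65 (edgeR with block, adjusted p = 0.0341).

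Signs turned in members that were not called, and in no called member. WT spleen replicate 3 has no mLN partner, so under the block it does not bear on the WT organ difference or the interaction. Under the block, the log2 difference between WT organs became 0.021 for Il2rg, 0.083 for Il15ra and 0.16 for Il21r, that between KO organs 0.028 for Il9r, and the interaction -0.062 for Il2rg, 0.078 for Il7r, -0.13 for Il15ra and -0.11 for Il21r. In the fit of all samples Il21r in WT became 0.0048 and Il9r in KO 0.0098. Without the erythroid-high libraries the WT organ difference became 0.0069 for Il2rg, 0.18 for Il15ra and 0.10 for Il21r, and the interaction -0.054 for Il2rg, 0.029 for Il7r, -0.22 for Il15ra and -0.051 for Il21r. Without WT mLN replicate 2 and KO mLN replicate 4 the interaction became 0.60 for Il2ra, -0.01 for Il2rg and 0.0017 for Il7r. In that fit Il2rb (0.29), Il4ra (0.24) and Il21r (0.21) kept their sign. With single samples left out, the KO against WT difference in spleen ranged from -0.012 to 0.16 for Il2rg, the WT organ difference from -0.16 to 0.020 for Il2rg, -0.17 to 0.098 for Il15ra and -0.13 to 0.16 for Il21r, and the KO organ difference from -0.19 to 0.20 for Il9r, -0.14 to 0.032 for Il15ra and -0.046 to 0.13 for Il21r. The interaction ranged from -0.37 to 0.33 for Il2ra, -0.029 to 0.23 for Il2rb, -0.055 to 0.11 for Il2rg, -0.10 to 0.21 for Il4ra, -0.32 to 0.10 for Il7r, -0.13 to 0.12 for Il15ra and -0.098 to 0.19 for Il21r.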
